A study of Homo sapiens with 17 samples.

Results

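Clustered protocadherins are cell-surface adhesion proteins encoded in tandem on human chromosome 5. Members were every gene symbol of the deposited RNA table that names an isoform of the alpha cluster (PCDHA or PCDHAC and a number), the beta cluster (PCDHB and a number) or the gamma cluster (PCDHGA, PCDHGB or PCDHGC and a number), which gave 54 of 60199 symbols: 16 alpha, 16 beta and 22 gamma. The neurons were made from H9, an established human embryonic stem cell line, through embryoid bodies and neural rosettes, and were collected at day 40. The KO neurons are UTX-/-, lacking the histone H3K27 demethylase that is also called KDM6A, and come from the lines KO1 (3 RNA libraries) and KO2 (2 RNA libraries), which share the H9 background and the culture protocol with wild type (WT, 3 RNA libraries). The sources used here do not say how the alleles were made or whether each line is 1 clone. They call the libraries biological replicates without saying whether these were separate differentiations, so the p-values may reflect technical spread only. H3K27me3 and H3K36me3 were measured by ChIP-seq, in 1 biological replicate per the series' design text, with 1 deposited peak list per mark and genotype. The question is how loss of UTX bears on these isoforms and on the 2 marks over their clusters.

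In the alpha and gamma clusters each isoform has its own promoter and its own large variable exon, which is spliced to constant exons that all isoforms of the cluster share. Beta isoforms are encoded by a single variable exon and have no constant exons. Single neurons express a few of the alternate isoforms, picked by promoter choice that involves DNA methylation, CTCF and cohesin, whereas the C-type isoforms (PCDHAC1, PCDHAC2, PCDHGC3, PCDHGC4 and PCDHGC5) are regulated apart from them. The proteins bind the same isoform on facing membranes, and in mice this is known to let dendrites of 1 neuron avoid each other. H3K27me3 is the mark of Polycomb repression that UTX removes. H3K36me3 is laid down along transcribed gene bodies.

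Most of the promoters share a short element. Stretches that match 6 bases of it are shown here for the isoforms that carry most of each cluster's RNA or that differed most between genotypes. Promoter windows from 250 bases before to 50 after the start were taken from RefSeq (GRCh38.p14) for 47 of the 54 members; PCDHA3, PCDHA13, PCDHA14, PCDHB6, PCDHB11, PCDHGA12 and PCDHGC5 had no entry. Each line gives 24 bases of the plus strand, 5′ to 3′, with the 6 bases that match GNCGCT (N is any base) in capitals.
PCDHA4 (chr5:140806981-140807004): gagccacatgatGTCGCTctttac
PCDHA6 (chr5:140827899-140827922): gagccgcatgatGTCGCTgtctac
PCDHA12 (chr5:140875246-140875269): cagtcacatgatGTCGCTctacac
PCDHAC1 (chr5:140926222-140926245): ctagaaggtgtgGTCGCTcacgtt
PCDHB2 (chr5:141094546-141094569): gagacgcggggtGGCGCTgcagcc
PCDHB16 (chr5:141182312-141182335): agaacgcgtggtGGCGCTgcaggt
PCDHB10 (chr5:141192301-141192324): aggccacacggtGGCGCTgcaggc
PCDHB15 (chr5:141245316-141245339): acaacgcatggtGGCGCTgcaggc
PCDHGA9 (chr5:141402716-141402739): aggactctgagcGCCGCTgttgat
PCDHGB6 (chr5:141407926-141407949): gagcctctgggcGCCGCTgtcggc
PCDHGA10 (chr5:141412933-141412956): aggactctgagcGCCGCTgttcac
PCDHGC3 (chr5:141475882-141475905): gggactctgtgtGCCGCTgtcggc
PCDHGC4 (chr5:141484954-141484977): ctgagcccgggaGCCGCTgtctgc

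The flanks of the element differed by cluster. Searched on both strands, GATGTCGCT was present in 9 of 13 alpha windows and in no beta or gamma window, against 0.0954% of the windows of 27258 other genes. GGTGGCGCT was present in 13 of 14 beta windows and 0.572% of the others, and GCGCCGCTG in 10 of 20 gamma windows and 1.55% of the others. All of these contain GNCGCT, which alone was in 45 of 47 member windows, PCDHA9 and PCDHGB7 being the exceptions, and also in 47.9% of the other windows. The window of PCDHAC2, among the 4 leading isoforms of the alpha cluster, matches GNCGCT on the minus strand alone, so it has no line above and no part in the positions given next. The letters were derived from these same windows, and a match describes the sequence and is not shown to be a binding site. The element began a median of 57 bases before the start in 11 alpha windows, 63.5 in 14 beta windows and 64 in 19 gamma windows. Its 24 bases matched the cluster's own consensus at a median of 21 positions in alpha, 20.5 in beta and 20 in gamma. That consensus was made from the windows with 1 copy (10 alpha, 12 beta and 15 gamma), which were scored too. Where a window held several copies, the one closest to the consensus was taken. The match is thus high in part by construction. PCDHAC1 with 11 matching positions, PCDHB1 with 12 and PCDHGC4 with 14 had the lowest match of their clusters. For these isoforms a match to GNCGCT, present in 47.9% of the other windows, does not show that the window holds the cluster's element.

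Longer promoter sequence is given for the 3 gamma isoforms on which the comparisons below turn: PCDHGC3 and PCDHGA9, called higher in KO neurons in the authors' deposited table, and PCDHGA10, which differed in direction between the KO lines and has peaks of H3K36me3 in both genotypes' lists. Each line is the 250 bases before the start on the plus strand (GRCh38.p14), with every match to GNCGCT on this strand in capitals. PCDHGC3 has 5 such copies, while PCDHGA9 and PCDHGA10 have 1 each.
PCDHGC3 (chr5:141475716-141475965): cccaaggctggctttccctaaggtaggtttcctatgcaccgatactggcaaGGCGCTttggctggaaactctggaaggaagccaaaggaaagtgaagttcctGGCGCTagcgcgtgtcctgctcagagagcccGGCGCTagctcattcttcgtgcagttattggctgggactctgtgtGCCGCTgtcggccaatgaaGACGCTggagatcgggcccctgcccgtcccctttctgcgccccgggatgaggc
PCDHGA9 (chr5:141402528-141402777): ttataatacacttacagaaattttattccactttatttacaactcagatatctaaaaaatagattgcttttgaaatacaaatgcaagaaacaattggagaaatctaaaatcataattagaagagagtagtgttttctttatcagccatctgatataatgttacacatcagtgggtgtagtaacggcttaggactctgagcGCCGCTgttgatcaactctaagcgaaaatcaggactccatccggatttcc
PCDHGA10 (chr5:141412737-141412986): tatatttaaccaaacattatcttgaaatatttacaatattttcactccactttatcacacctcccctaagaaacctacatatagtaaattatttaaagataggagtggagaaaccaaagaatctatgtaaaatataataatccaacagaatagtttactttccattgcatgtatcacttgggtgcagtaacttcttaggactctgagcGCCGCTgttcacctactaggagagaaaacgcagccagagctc

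RNA totals were 17374615 to 31527014 estimated counts per library, and levels are given as CPM, counts scaled to a common library size, here with TMM factors that adjust for composition. The libraries KO1 replicate 2, KO2 replicate 1 and KO2 replicate 2 stand apart. The summed level of 11 mesenchymal and fibroblast markers was 24521 to 63206 CPM in them, against 951 to 1182 in the other 2 KO libraries and 109 to 1657 in WT, with none of the 11 at 0 in all libraries. In the 3 libraries most of that sum is COL1A1, COL1A2 and COL3A1, and it does not follow every marker: in the other 2 KO libraries 3 of the 11, TAGLN, ACTA2 and FBN1, chosen here with their values in view, lay above all WT libraries. TAGLN, an actin-binding protein of smooth muscle and fibroblasts, had 312 and 51.0 CPM in them and at most 19.1 CPM in WT. ACTA2, smooth muscle actin, had 151 and 25.8 CPM there and at most 19.5 CPM in WT, and FBN1, fibrillin, had 70.9 and 49.2 CPM there and at most 45.0 CPM in WT. Leaving out the 3 libraries therefore does not leave KO libraries at the WT level of all these markers. The summed level of 12 pan-neuronal markers was 975 to 3008 CPM in these 3 libraries, 4399 to 5349 in the other 2 KO libraries and 4111 to 6121 in WT. For 8 neural progenitor markers, all with a lower fitted level in KO and 0 past an adjusted p of 0.05 by edgeR or in the authors' deposited table, it was 627 to 1462, 2624 to 2698 and 2584 to 2849 CPM in the same order. For 5 epithelial and choroid markers, all with a higher fitted level in KO and 3 called higher in the authors' deposited table, it was 162 to 741, 36.1 to 544 and 13.1 to 81.7 CPM. These 3 libraries are called the high-collagen libraries below. They were singled out from collagen levels after the data were seen, the part of these other cells in the isoform values was not tested, and fewer cells of a type cannot be told apart from less RNA per cell. KDM6A itself averaged 33.0 ± 5.50 CPM in KO neurons and 35.7 ± 0.457 CPM in WT neurons (SD, n = 5 and 3), so its RNA level does not check the genotype.

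In both genotypes a few isoforms carried most of each cluster's RNA. The 4 leading isoforms of each cluster by mean CPM made up 64.5 to 81.0% of the estimated counts of the alpha cluster, 64.5 to 72.1% of the beta cluster and 90.6 to 95.9% of the gamma cluster, over the range of the libraries. In the alpha cluster these were PCDHA6, PCDHA12, PCDHA4 and PCDHAC2. In the beta cluster they were PCDHB2, PCDHB15, PCDHB16 and PCDHB10, and in the gamma cluster PCDHGB6, PCDHGC3, PCDHGC4 and PCDHGA10. The shares are of estimated counts and are not scaled by length. Alpha isoforms share constant exons among themselves, as gamma isoforms do, so that reads in those exons were divided between isoforms by the authors' quantification and isoform values there are less certain than cluster sums. The sources used here do not say whether the libraries keep strand, so antisense RNA over these genes cannot be told apart.

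**Figure D1:**
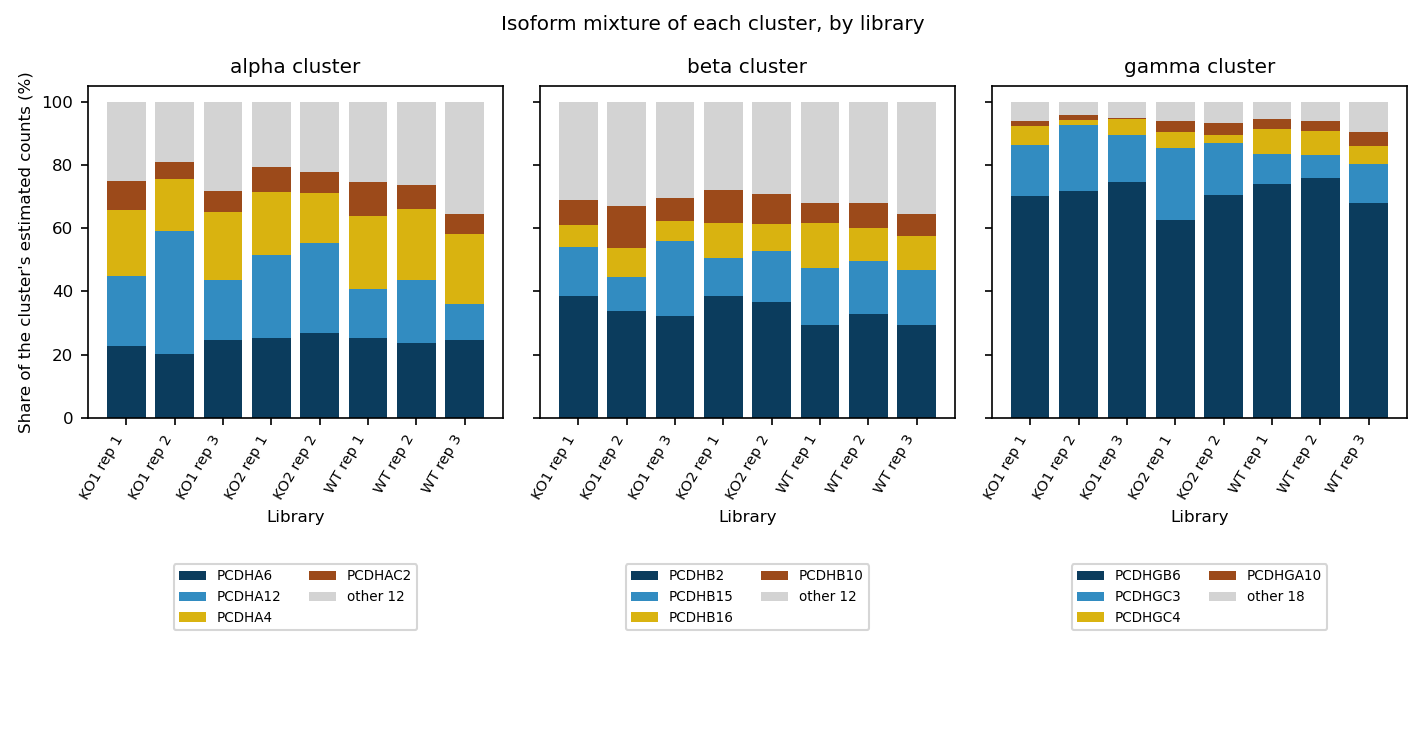
Share of each cluster's estimated counts (%, y axis) held by its 4 leading isoforms and by the others together, for each library (x axis, KO1 and KO2 left of WT). PCDHGB6 holds 62.5 to 76.0% of the gamma cluster in every library, and PCDHA12 holds 18.9 to 38.9% of the alpha cluster in KO libraries and 11.5 to 19.9% in WT libraries.

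PCDHGB6, an alternate gamma isoform, was the most abundant member by CPM. It had 352, 483 and 373 CPM in KO1, 422 and 402 CPM in KO2, and 278, 359 and 216 CPM in WT. KO and WT overlapped, since WT replicate 2 lay above KO1 replicate 1. Its share of the gamma cluster was 69.9 ± 4.45% in KO and 72.6 ± 4.23% in WT (SD, n = 5 and 3).

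Beta isoforms have no shared exons, and their levels are set side by side here per length. Their estimated counts are fractional too, such as 288.4 for PCDHB16 in KO1 replicate 1. Some reads there may thus also have been divided between genes. The length used is the gene span, which can differ from that of the transcript. Per kb of the RefSeq gene span, PCDHB2 stood highest, with 19.0 ± 1.50 CPM per kb in KO and 14.7 ± 1.91 in WT (SD, n = 5 and 3). PCDHB15 had 8.53 ± 2.90 CPM per kb in KO and 8.57 ± 0.541 in WT. PCDHB10 had 6.32 ± 1.48 CPM per kb in KO and 4.25 ± 0.798 in WT, and PCDHB16 had 4.70 ± 1.04 in KO and 5.95 ± 1.098 in WT. Per kb and within each library, PCDHB10 stood above PCDHB16 in all 5 KO libraries and below it in all 3 WT libraries, an order described here with the values in view and not tested. In CPM not divided by length, KO2 replicate 1 had 22.7 for PCDHB10 and 23.9 for PCDHB16, so that the order depends on the length used. PCDHB14 followed at 3.88 ± 0.439 CPM per kb in KO and 3.88 ± 0.370 in WT. The other 11 lay between 0.0381 and 2.02 CPM per kb in KO means and between 0.0659 and 2.02 in WT means, PCDHB1 being the lowest in both.

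Summed over the cluster, gamma RNA was higher in KO than in WT neurons, and 2 of its 22 isoforms, PCDHGB6 and PCDHGC3, carried that difference. The gamma total was 501, 673 and 500.0 CPM in KO1, 676 and 571 CPM in KO2, and 376, 473 and 318 CPM in WT. Every KO library lay above every WT library, with means of 584 ± 87.3 CPM in KO and 389 ± 78.2 CPM in WT (SD, n = 5 and 3) and a log2 ratio of 0.59. PCDHGB6 averaged 406 ± 50.4 CPM in KO and 284 ± 72.0 CPM in WT, and PCDHGC3 averaged 110 ± 36.7 CPM in KO and 37.1 ± 2.90 CPM in WT. The other 20 gamma isoforms summed to 68.4 ± 19.4 CPM in KO and 67.6 ± 10.0245 CPM in WT, a log2 ratio of 0.0162, and their libraries overlapped. The alpha total was 154, 212 and 169 CPM in KO1, 186 and 167 CPM in KO2, and 137, 156 and 126 CPM in WT. KO and WT overlapped there, and the log2 ratio of the means was 0.35. The beta total was 208, 209 and 221 CPM in KO1, 217 and 224 CPM in KO2, and 196, 209 and 182 CPM in WT, a log2 ratio of 0.14. The lowest KO libraries lay within the WT range. Cluster sums were not tested, since the members were chosen with results known. Without the 3 high-collagen libraries the log2 ratio was 0.37 for gamma, 0.21 for alpha and 0.13 for beta.

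Fitted levels of single isoforms were split between both directions. Of the 54, 49 passed the filter on low counts in KO against WT, and 5 did not (PCDHA1, PCDHGA5, PCDHGA7, PCDHGA12 and PCDHGB3, none above 1.39 CPM in any library). Among the 49, 23 had a higher and 26 a lower fitted level in KO, and their median log2 fold change was -0.01, the same as over all 18614 genes tested. By cluster the median was 0.04 for 15 alpha, -0.00304 for 16 beta and -0.09 for 18 gamma isoforms. In the gamma cluster 8 of 18 were higher and 10 lower.

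**Figure D2:**
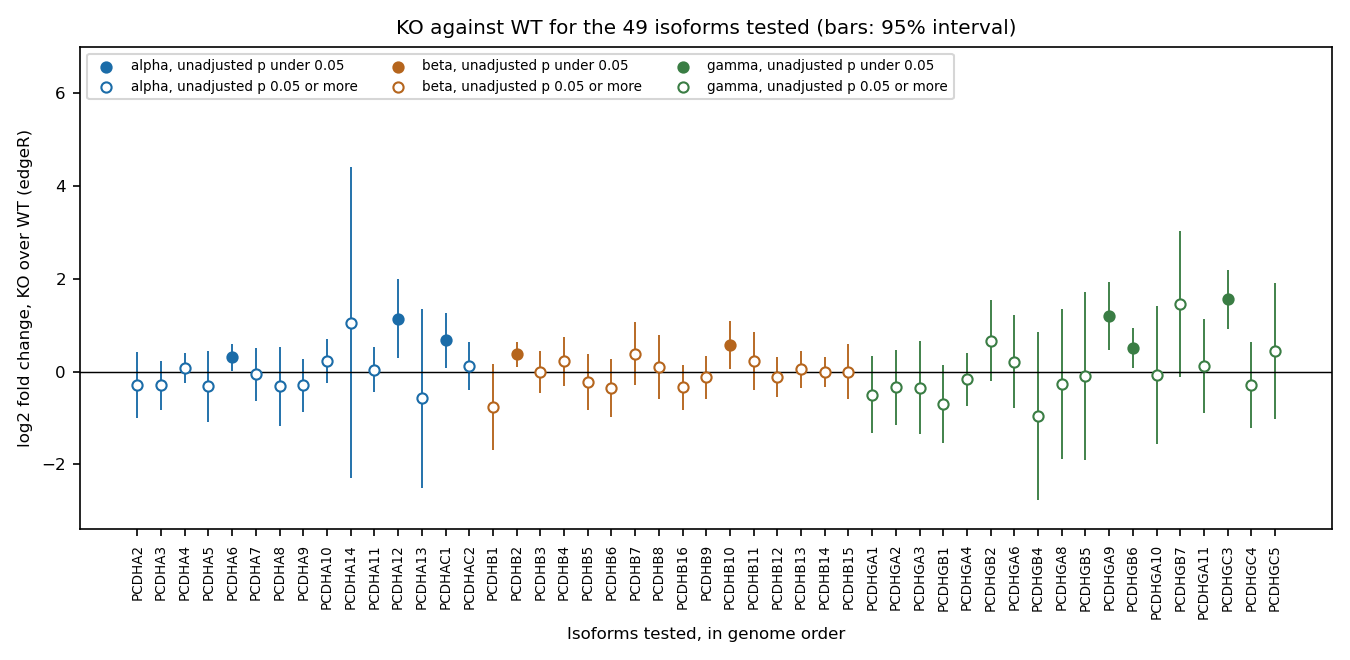
log2 fold change of KO over WT (y axis, edgeR; bars are 95% intervals) for the 49 isoforms tested, in genome order (x axis). Filled points have an unadjusted p under 0.05: these are 8 isoforms, all above 0, with PCDHGC3 highest at 1.56.

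By edgeR's quasi-likelihood test with Benjamini-Hochberg adjustment over all genes, no isoform passed an adjusted p of 0.05 in KO against WT, and neither did any of the 18614 genes (percent called 0.0%). The smallest adjusted p was 0.243 among the isoforms and 0.0941 over all genes. At an unadjusted p under 0.05 there were 8 isoforms higher in KO (16.3% of 49, against 11.5% of all genes tested) and 0 lower (against 6.45%): PCDHGC3, PCDHGA9, PCDHB2, PCDHA12, PCDHGB6, PCDHAC1, PCDHB10 and PCDHA6. In the authors' deposited table, made with DESeq2, 2 of the 49 passed an adjusted p of 0.05, both higher in KO (4.08%, against 5.23% of all genes tested), and 0 were lower (against 1.24%). DESeq2 refitted here called the same 2 isoforms, with 6.49% of genes called. In 5 isoforms every KO library exceeded every WT library, against 6.29% of all genes tested, and in 0 every KO library lay below every WT library, against 6.16%. The 5 were PCDHGC3, PCDHGA9, PCDHB2, PCDHA12 and PCDHAC1.

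PCDHGC3, a C-type gamma isoform that in mice promotes dendrite branching of cortical neurons, had the smallest p of the 49. It had 80.8, 142 and 74.8 CPM in KO1, 156 and 95.1 CPM in KO2, and 36.8, 34.4 and 40.2 CPM in WT. The lowest KO library lay at 74.8 CPM and the highest WT library at 40.2 CPM, so the genotypes did not overlap. The means were 110 ± 36.7 CPM in KO and 37.1 ± 2.90 CPM in WT (SD, n = 5 and 3). The edgeR log2 fold change was 1.56 (SE 0.278, 95% interval 0.92 to 2.201, adjusted p = 0.243). The authors' deposited table gives 1.58 (SE 0.307) with an adjusted p of 8.47e-05. The highest values were in KO1 replicate 2 and KO2 replicate 1, both high-collagen libraries. Without all 3 of those, the log2 fold change was 1.07 (adjusted p = 0.245 by edgeR and 4.01e-09 by DESeq2), with KO1 replicates 1 and 3 still above all 3 WT libraries. TAGLN, ACTA2 and FBN1 were above WT in those same 2 libraries too. So were KRT19 and CLDN6, 2 of 5 epithelial and choroid markers, and KDR and TEK, 2 of 4 endothelial markers, with 0 of either list below WT. The part of all these genes in this value was not tested. PCDHGC3 made up 18.4 ± 3.47% of the gamma cluster's estimated counts in KO and 9.89 ± 2.68% in WT.

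Of the other C-type isoforms, PCDHAC1 also separated the genotypes, by a narrow gap, and the remaining 3 overlapped between them. PCDHAC1 had 4.60, 3.76 and 4.14 CPM in KO1, 2.69 and 3.91 CPM in KO2, and 1.86, 2.67 and 2.63 CPM in WT. Every KO library lay above every WT library, by as little as 2.69 against 2.67 CPM, and the log2 fold change was 0.68 (SE 0.259, edgeR adjusted p = 0.258). PCDHAC2 had 13.7, 11.4 and 11.1 CPM in KO1, 14.9 and 10.7 CPM in KO2, and 14.4, 11.8 and 7.78 CPM in WT. Its genotypes overlapped, with a log2 fold change of 0.12 (95% interval -0.40 to 0.65). PCDHGC4, which in mice is the C-type isoform needed for survival of inhibitory interneurons, had 29.8, 10.2 and 24.6 CPM in KO1, 32.3 and 13.6 CPM in KO2, and 28.9, 34.8 and 17.8 CPM in WT. The genotypes overlapped, and its log2 fold change was -0.30 (95% interval -1.23 to 0.64). Its lowest libraries were KO1 replicate 2 and KO2 replicate 2, both high-collagen, while KO2 replicate 1, also high-collagen, was its highest KO library. PCDHGC5 was low, with 0.730 to 5.38 CPM in KO, median 1.64, and 0.912 to 2.13 CPM in WT.

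**Figure D3:**
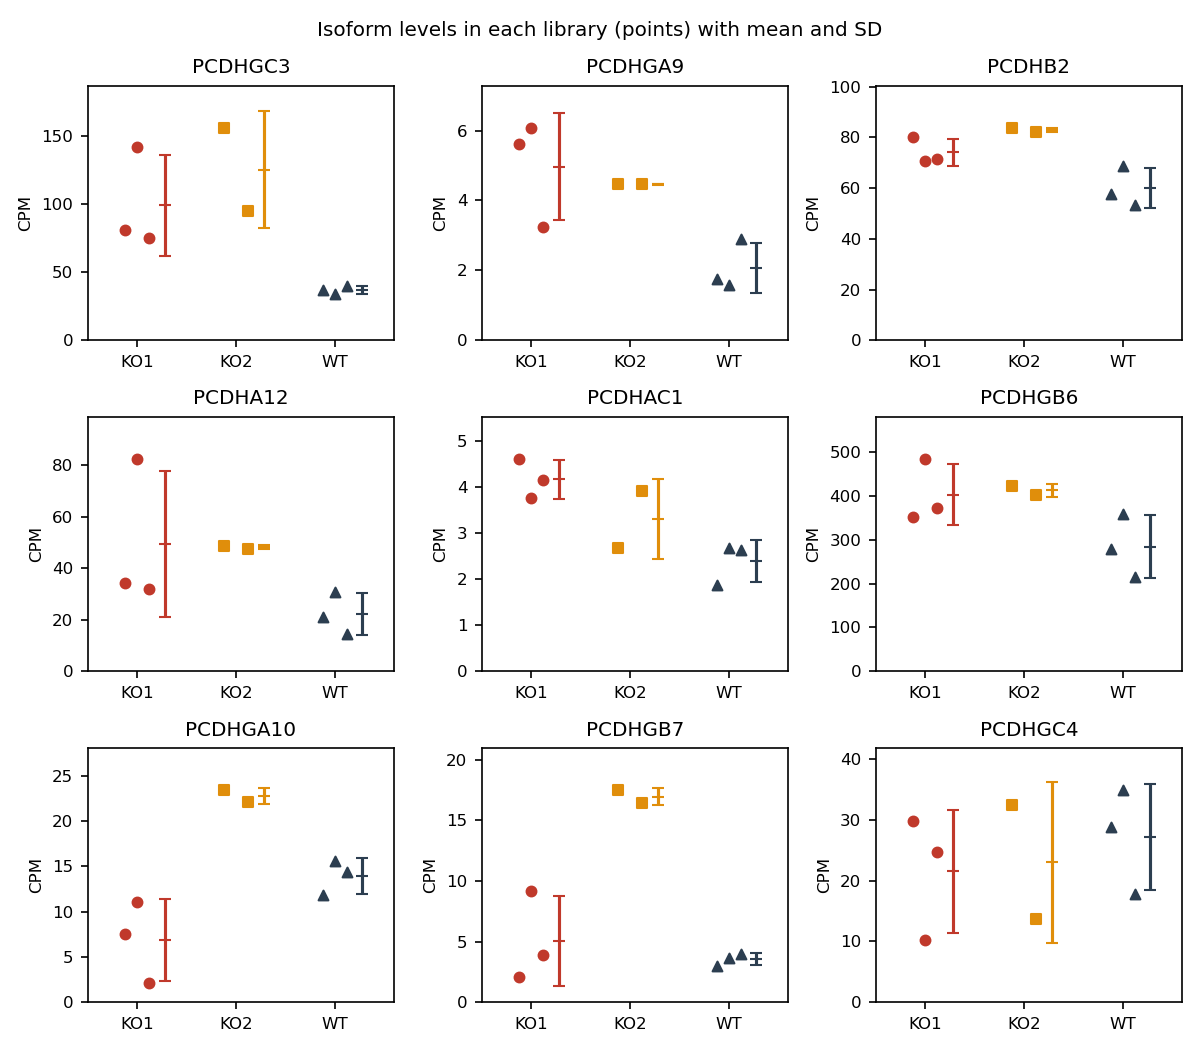
TMM-scaled CPM (y axis, from 0) of 9 isoforms in each library (points), with the mean and SD of each group (bar), for KO1 (n = 3), KO2 (n = 2) and WT (n = 3). PCDHGC3 and PCDHGA9 lie above WT in every KO library, and PCDHGA10 and PCDHGB7 differ between the KO lines.

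PCDHGA9, an alternate gamma isoform, was the other one called in the authors' deposited table. It had 5.61, 6.06 and 3.23 CPM in KO1, 4.48 and 4.46 CPM in KO2, and 1.74, 1.58 and 2.90 CPM in WT. The genotypes did not overlap, the nearest libraries being KO1 replicate 3 at 3.23 CPM and WT replicate 3 at 2.90 CPM. The edgeR log2 fold change was 1.20 (SE 0.318, adjusted p = 0.243), and the authors' deposited table gives 1.23 (SE 0.327, adjusted p = 0.00832). Without the 3 high-collagen libraries it was 1.097 (adjusted p = 0.588 by edgeR and 0.355 by DESeq2). The DESeq2 call was also lost without WT replicate 1 (adjusted p = 0.101) or WT replicate 2 (adjusted p = 0.118), and held with any other library left out (adjusted p = 0.000533 to 0.0359). PCDHGB6, its downstream neighbour, had a log2 fold change of 0.52 (SE 0.190, edgeR adjusted p = 0.251).

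PCDHB2, the leading beta isoform, had 80.2, 70.7 and 71.3 CPM in KO1, 83.6 and 82.3 CPM in KO2, and 57.8, 68.7 and 53.6 CPM in WT. The genotypes did not overlap, although the difference was small, with a log2 fold change of 0.37 (SE 0.120, edgeR adjusted p = 0.243). PCDHB10 had 16.5, 27.8 and 15.9 CPM in KO1, 22.7 and 21.3 CPM in KO2, and 12.2, 17.0 and 12.8 CPM in WT. Its genotypes overlapped at WT replicate 2, and the log2 fold change was 0.57 (SE 0.226, edgeR adjusted p = 0.263). PCDHB15 averaged 33.9 ± 11.5 CPM in KO and 34.0 ± 2.15 CPM in WT (SD, n = 5 and 3), so that its KO libraries spread more widely around nearly the same mean. PCDHB16 had 14.6, 18.9 and 14.1 CPM in KO1, 23.9 and 18.8 CPM in KO2, and 27.6, 21.6 and 19.4 CPM in WT. Its log2 fold change was -0.34 (SE 0.210, edgeR adjusted p = 0.385), and in KO1 alone every library lay below every WT library.

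In the alpha cluster PCDHA12 had the lowest p. It had 34.4, 82.3 and 31.9 CPM in KO1, 48.7 and 47.7 CPM in KO2, and 21.2, 31.0 and 14.5 CPM in WT. The genotypes did not overlap, but KO1 replicate 3 at 31.9 CPM was close to WT replicate 2 at 31.0 CPM, and the highest value was in KO1 replicate 2. The log2 fold change was 1.14 (SE 0.371, edgeR adjusted p = 0.243). Without the 3 high-collagen libraries it was 0.57 (edgeR adjusted p = 0.684). PCDHA6 averaged 42.4 ± 4.64 CPM in KO and 34.2 ± 3.07 CPM in WT, a log2 fold change of 0.31 (SE 0.128, edgeR adjusted p = 0.270), and PCDHA4 averaged 33.4 ± 4.23 CPM in KO and 31.6 ± 3.49 CPM in WT, a log2 fold change of 0.08 (95% interval -0.25 to 0.41). Both overlapped between genotypes.

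The KO lines were set against WT one at a time and against each other in a fit with 3 groups, in which 52 isoforms and 19440 genes were tested. The comparisons with WT share the 3 WT libraries. By edgeR no isoform passed an adjusted p of 0.05 in KO1 against WT, KO2 against WT or KO2 against KO1, with 0.0% of genes called in each. In KO1 every library was above every WT library for 6 isoforms (against 7.66% of genes) and below for 2, PCDHB16 and PCDHGA10 (against 7.46%). In KO2 it was 14 above (against 24.6%) and 7 below (against 25.4%), and of KO2 against KO1 6 above (against 4.33%) and 4 below (against 5.84%). At an unadjusted p under 0.05, KO1 had 4 isoforms higher (PCDHA12, PCDHAC1, PCDHGA9 and PCDHGC3, against 5.62% of genes) and 1 lower (PCDHB16, against 2.44%). KO2 had 6 higher (PCDHA12, PCDHA6, PCDHB2, PCDHGA9, PCDHGB7 and PCDHGC3, against 10.6% of genes) and 4 lower (PCDHA14, PCDHA3, PCDHGA1 and PCDHGB1, against 7.78%). By DESeq2, PCDHGC3 passed in KO1 (adjusted p = 0.0114, with 0.903% of genes called), and PCDHGC3 and PCDHGB7 passed in KO2 (adjusted p = 0.000973 and 0.00918, with 4.35% of genes called). For KO2 against KO1 DESeq2 called 0 isoforms, with 0.0472% of genes called, and at an unadjusted p under 0.05 edgeR had 2 isoforms higher in KO2 (PCDHGA10 and PCDHGB7) and 1 lower (PCDHA14, against 0.818% of genes). The edgeR log2 fold change of PCDHGC3 was 1.41 (SE 0.295) in KO1 and 1.75 (SE 0.320) in KO2, and the difference of KO2 from KO1 was 0.34 (95% interval -0.42 to 1.09).

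PCDHGA10 and PCDHGB7, neighbouring alternate gamma isoforms, set the lines apart. PCDHGB7 falls outside the rule for named isoforms and was chosen with its values in view, as were PCDHA14 and PCDHGB1 below. PCDHGA10 had 7.53, 11.1 and 2.11 CPM in KO1, 23.4 and 22.1 CPM in KO2, and 11.8, 15.6 and 14.4 CPM in WT. Both KO2 libraries lay above all WT libraries and all 3 KO1 libraries below them. The log2 fold change of KO2 over KO1 was 1.73 (SE 0.568, edgeR adjusted p = 1.00), with 1.42% of genes higher in KO2 at an unadjusted p under 0.05. PCDHGB7 had 2.07, 9.20 and 3.94 CPM in KO1, 17.5 and 16.4 CPM in KO2, and 3.04, 3.67 and 3.97 CPM in WT. Its KO2 libraries lay above all others, KO1 replicate 2 came next, and KO1 replicates 1 and 3 lay at or below the highest WT library. The log2 fold change of KO2 over WT was 2.25 (SE 0.551, edgeR adjusted p = 0.257), and that of KO2 over KO1 was 1.74 (SE 0.547, edgeR adjusted p = 1.00). Its 3 highest libraries are the 3 high-collagen ones, and both KO2 libraries are among those, so that line and culture composition cannot be told apart for it.

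Among lower isoforms of KO2, PCDHA14, a pseudogene in RefSeq, had 1.31, 1.18 and 1.70 CPM in KO1, 0 in both KO2 libraries, and 0, 0.823 and 0.375 CPM in WT. It was present in all 3 KO1 libraries and at 0 in both KO2 libraries and in WT replicate 1. PCDHGB1 averaged 3.74 ± 1.40 CPM in KO1 (n = 3), 2.29 ± 0.436 CPM in KO2 (n = 2) and 5.13 ± 1.35 CPM in WT (SD, n = 3). The heat map shows all 54 isoforms by library.

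**Figure D4:**
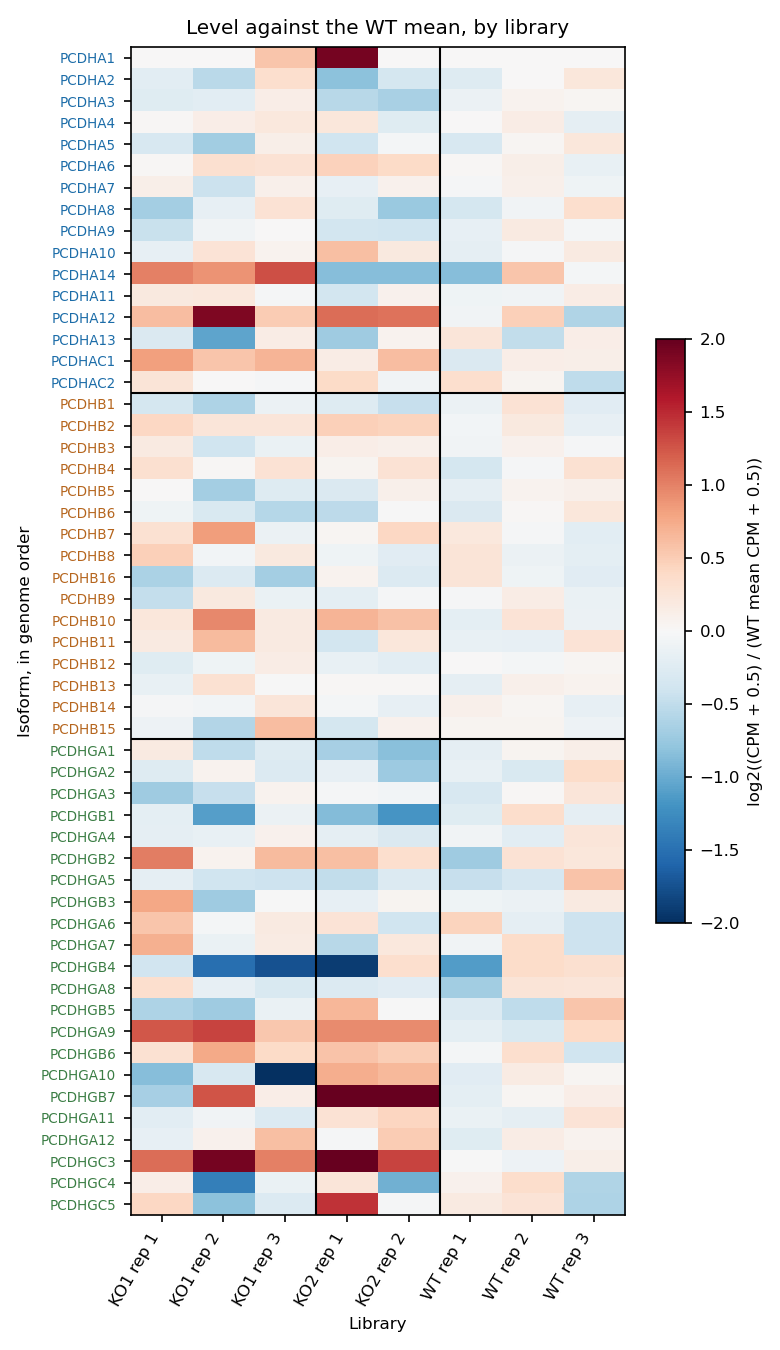
log2 of CPM + 0.5 over the WT mean + 0.5 (colour, limited to -2 and 2) for all 54 isoforms in genome order (rows) in each library (columns, KO1 and KO2 left of WT). PCDHGC3 and PCDHGA9 are above 0 in all 5 KO libraries, whereas PCDHGA10 is below 0 in KO1 and above 0 in KO2.

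The spread of isoforms between WT libraries was set beside that of other genes at the same level. The median coefficient of variation (SD over mean) over the 3 WT libraries was 49.5% for 8 isoforms under 1 CPM, against 40.7% for 2341 other genes, and 22.1% for 20 isoforms of 1 to 5 CPM, against 29.5% for 3353 other genes. It was 13.3% for 13 isoforms of 5 to 20 CPM, against 18.2% for 3802 other genes, and 11.1% for 7 isoforms of 20 to 100 CPM, against 11.1% for 6742 other genes. PCDHGB6, the 1 isoform above 100 CPM, varied by 25.3%, against a median of 9.85% for 2327 other genes.

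Peaks of the marks were sparse over the clusters, which together with the gaps between them span 726.836 kb (chr5:140786140-141512975, GRCh38.p14). For H3K27me3 the KO list had 1 peak in the clusters and the WT list had 0. The KO peak lay at chr5:141051787-141052087 (301 bases), with its summit 0.529 kb past the start of PCDHB1 inside the gene, and the authors' fold over the control was 4.20. Within 2 kb of a start there was thus a peak at 1 of 54 isoforms in the KO list and 0 of 54 in the WT list, against 10.8% of 27150 genes outside the clusters in the KO list and 10.4% in the WT list. PCDHB1, the first and lowest beta isoform, had 0.303, 0.168 and 0.441 CPM in KO1, 0.358 and 0.248 CPM in KO2, and 0.446, 0.754 and 0.375 CPM in WT. The genotypes overlapped, and its log2 fold change was -0.77 (SE 0.402, edgeR adjusted p = 0.327).

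For H3K36me3 the KO list had 1 peak in the clusters and the WT list had 16. The WT peaks covered 7114 bases, 4 of them in the alpha, 0 in the beta and 12 in the gamma cluster, and the KO peak overlapped none of them. Across the genome the KO list holds 8937 peaks and the WT list 30144, so that the KO list holds 29.6% as many peaks. Of the 8937 KO peaks, 4260 (47.7%) overlap a WT peak by at least 1 base, beside 0 of 1 in the clusters. Of the 30144 WT peaks, 3973 (13.2%) overlap a KO peak, so most WT peaks of the genome have none over them. The lists come from 44277432 tags in KO and 22510003 tags in WT. Over the whole lists, KO peaks were shorter, with a median length of 254 bases against 382 in WT. Their median fold over the control was 4.21 against 4.63 in WT, and the highest was 7.48 against 12.0. The lists thus differ across the genome as well as over the clusters. There is 1 list per genotype, so these differences have no replicate check. The KO lists are named by the labels of both KO lines, and the sources used here do not say whether reads of the lines were pooled. Within 2 kb of a start the KO list had a peak at 1 isoform (PCDHGA10, against 1.18% of genes outside the clusters) and the WT list at 9 of 54 (against 3.65%): PCDHA4, PCDHA5, PCDHA7, PCDHA11, PCDHGB6, PCDHGA10, PCDHGA12, PCDHGC3 and PCDHGC5.

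The longest of these peaks was the WT peak at the shared 3′ end of the gamma cluster, chr5:141510898-141512381 (1484 bases), with its summit 0.859 kb before the end and the authors' fold of 6.02. It lies where the constant exons of all gamma isoforms end. No peak of the KO list lay there, as for most WT peaks across the genome. The start of PCDHGC5 was followed by 4 further WT peaks, with summits 0.458, 1.27, 2.96 and 3.63 kb past it.

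At PCDHGA10 the lists came closest. The WT list had 3 peaks, with summits 0.122, 0.820 and 1.82 kb past its start, the first of which, chr5:141412923-141413426, contains the promoter element of PCDHGA10 shown above. The KO peak at chr5:141414328-141414567 had its summit 1.49 kb past the start and the authors' fold of 4.38, and lay between the last of these WT peaks and the one before it. At PCDHGC3 the WT list alone had a peak, chr5:141476349-141476630, with its summit 0.465 kb past the start and the authors' fold of 3.74, and its RNA values are those given above. At PCDHGB6 the WT list alone had a peak 1.89 kb past the start. Across the genome 13.2% of WT H3K36me3 peaks overlap a KO peak, so a peak in the WT list alone was the usual case.

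**Figure D5:**
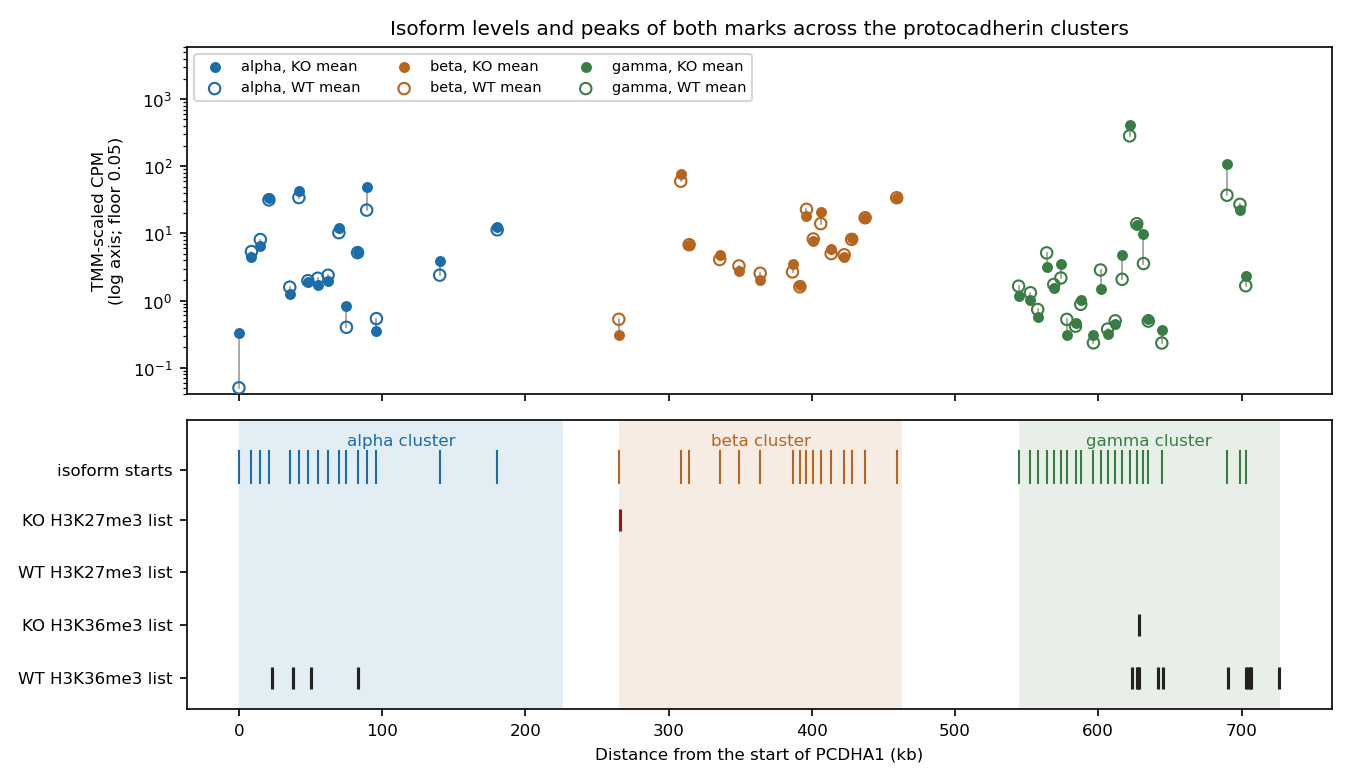
Upper panel: mean TMM-scaled CPM (log axis) of each isoform in KO (filled) and WT (open) at its start, by distance from the start of PCDHA1 in kb (x axis), with means under 0.05 CPM drawn at 0.05. Lower panel: isoform starts and summits of the deposited peaks, with 1 H3K27me3 peak (KO), 1 KO H3K36me3 peak and 16 WT H3K36me3 peaks within the shaded clusters.

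The alpha isoforms with a WT peak of H3K36me3 overlapped between genotypes. PCDHA5 averaged 1.264 ± 0.386 CPM in KO and 1.58 ± 0.381 CPM in WT, and PCDHA7 1.90 ± 0.365 CPM in KO and 1.98 ± 0.170 CPM in WT (SD, n = 5 and 3). PCDHA11 averaged 5.32 ± 0.885 CPM in KO and 5.17 ± 0.538 CPM in WT. The edgeR log2 fold changes were -0.32 for PCDHA5 (95% interval -1.08 to 0.45), -0.06 for PCDHA7 and 0.04 for PCDHA11. PCDHGA12, with a WT peak too, stayed at or under 0.617 CPM in every library and was not tested. TAF7, a gene between the beta and gamma clusters, held H3K36me3 peaks in both lists, with the authors' folds of 3.59 and 6.09 in KO and 4.81 in WT.

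Genes that act with the clustered protocadherins were read from the same fit. Of 35 genes for promoter choice and chromatin, 6 had a higher and 29 a lower fitted level in KO, with a median log2 fold change of -0.19 against -0.01 over all genes, and none passed an adjusted p of 0.05 by edgeR or in the authors' deposited table. At an unadjusted p under 0.05, 2 were higher and 4 lower, against 11.5% higher and 6.45% lower of all genes tested. The summed level of this list was 3273 to 3779 CPM in the high-collagen libraries, 4100 to 4364 CPM in the other 2 KO libraries and 4216 to 4502 CPM in WT. CTCF, which binds these promoters, averaged 100.0 ± 17.2 CPM in KO and 116 ± 16.6 CPM in WT (SD, n = 5 and 3; log2 fold change -0.22, edgeR adjusted p = 0.465). SMCHD1, which keeps clustered protocadherin promoters silent in mice, averaged 134 ± 9.66 CPM in KO and 151 ± 9.29 CPM in WT (log2 fold change -0.17, edgeR adjusted p = 0.371). DNMT3B, a DNA methyltransferase that in mice methylates these promoters, lies outside the rule for named genes and is given with its values in view. It had 37.6, 8.64 and 30.7 CPM in KO1, 12.8 and 17.2 CPM in KO2, and 46.2, 42.6 and 60.7 CPM in WT. The genotypes did not overlap, and its 3 lowest libraries are the high-collagen ones. The log2 fold change was -1.22 (SE 0.447, edgeR adjusted p = 0.251; adjusted p = 0.109 in the authors' deposited table). Of 21 binding partners and effectors, such as the kinases PTK2 and FYN and the WAVE complex, 12 were higher and 9 lower with a median of 0.06, and none passed in either table; at an unadjusted p under 0.05, 2 were higher and 1 lower, against the same 11.5% and 6.45% of all genes.

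Protocadherins encoded outside the clusters, which have their own single genes, were read in the same way. Of 12, 8 had a higher and 4 a lower fitted level in KO, with a median log2 fold change of 0.35, and at an unadjusted p under 0.05 by edgeR 4 were higher and 0 lower (against 11.5% and 6.45% of all genes), none with an adjusted p under 0.05. Their summed level was 620 to 881 CPM in the high-collagen libraries, 508 to 559 CPM in the other 2 KO libraries and 251 to 376 CPM in WT, with no overlap between the genotypes. PCDH7 was the 1 that passed in the authors' deposited table, with a log2 fold change of 1.80 and an adjusted p of 3.57e-05. It averaged 99.2 ± 33.1 CPM in KO and 28.7 ± 7.57 CPM in WT (edgeR adjusted p = 0.243).

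Among 11282 genes outside the clusters with a mean of at least 10 CPM, the 5 whose log2 CPM followed PCDHGC3 most closely over the 8 libraries were SPG7 (Pearson r 0.989), CNN3 (0.988), CHRNB1 (0.986), RGS5 (0.983) and RNF215 (0.980). RGS5, a gene of pericytes, had 67.7, 516 and 25.3 CPM in KO1, 404 and 160 CPM in KO2, and 5.80, 1.99 and 6.70 CPM in WT, highest in the 3 high-collagen libraries. SPG7, CHRNB1 and RNF215 were highest in the same 3 libraries too. CNN3 was not, with 375 CPM in KO2 replicate 2 and 385 CPM in KO1 replicate 1. From which cells the PCDHGC3 RNA came was not tested. For the beta total the 5 closest genes were NRSN2 (0.970), TRAPPC2L (0.952), ATP5PF (0.944), NIP7 (0.942) and SLC7A6 (0.936). These are descriptions over 8 libraries that share scaling and culture composition, picked as the highest of many.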

How the data were processed

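RNA-seq covers 8 libraries (5 KO, 3 WT) and ChIP-seq 4 deposited peak lists. Per the submitters' processing notes, the authors quantified RNA with Salmon 1.1.0, tested it with DESeq2 1.26.0, aligned ChIP reads to GRCh38 with Bowtie2 2.4.1 and called peaks with MACS2 2.2.7.1. Their RNA table was deposited as unnormalized estimated counts, 1 row for each symbol. Their comparison of the genotypes was deposited as log2 fold changes with p-values and adjusted p-values. Per the file headers, each peak has a pileup signal, a fold ratio over its control and a −log10 q-value, with q of 0.01 as the limit. The sources used here do not say how transcripts were summed to genes.

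Estimated counts were rounded to whole numbers. Tests used edgeR 4.0.16 in R 4.3.3 (filterByExpr, TMM, quasi-likelihood F-test, Benjamini-Hochberg adjustment over all genes tested, threshold 0.05), once with KO1 and KO2 pooled and once with 3 groups. Intervals of 95% use the fit's degrees of freedom. DESeq2 1.42.0 served as the alternative. The edgeR step was also run on simulated counts with the same spread for every gene, unlike these libraries. That run checks the code and does not show what changes the test could detect here. Peak overlaps needed 1 base, and isoform starts and promoters came from RefSeq GRCh38.p14. Members, gene lists and tests were chosen with earlier results of these data known. Named isoforms are the C-types, the 4 with the highest mean CPM per cluster, the 6 with the lowest p in KO against WT, those with an adjusted p under 0.05 in edgeR or the authors' table, and those with a peak at the start in 1 genotype only. Alternatives covered scaling, filtering, the tool, a replicate block, left-out libraries, peak thresholds and windows. Library totals of 17374615 to 31527014 limit the precision of low isoforms.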

Additional observations from a re-analysis of the deposited data

Results flagged for a closer look

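PCDHGA10 was singled out because its KO lines lay on opposite sides of WT. It had 7.53, 11.1 and 2.11 CPM in KO1 and 23.4 and 22.1 CPM in KO2, against 11.8, 15.6 and 14.4 CPM in WT. The log2 fold change of KO2 over KO1 was 1.73 (edgeR, unadjusted p = 0.0180, adjusted p = 1.00), so the difference between the lines did not pass the adjustment over all genes. Both KO2 libraries are high-collagen libraries. KO1 replicate 2, the other high-collagen library, had 11.1 CPM, the highest value of KO1 and just below WT replicate 1 at 11.8 CPM. Line and culture composition cannot be told apart here, and their parts were not tested. Of 23 groups of 5 KO libraries examined, 20 isoforms and the 3 cluster totals, none held a library beyond Dixon's 95% limit of 0.710. Each group pools both lines and holds the 3 high-collagen libraries. Several high libraries can hide each other in this test, so it cannot show that no library stands apart.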

How the results depend on the processing

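By edgeR 0 isoforms passed in KO against WT and in KO1 against WT under each scaling, filter, left-out library and with the replicate block. DESeq2 called 2 in KO against WT, 1 without the 3 high-collagen libraries and 1 to 4 with each library left out in turn (1 without WT replicate 1, 4 without WT replicate 2 or KO1 replicate 1, 3 without KO1 replicate 3 or KO2 replicate 1, and 2 otherwise), PCDHGC3 in all. Over all genes DESeq2 called 1243 of 20745 in KO against WT and 262 of 18360 without the high-collagen libraries. With 1 library left out it called from 452 of 18518 (without WT replicate 2) to 2870 of 20950 (without KO1 replicate 3). Without KO1 replicate 1 it called 1762 of 19789. DESeq2 called 1 isoform in KO1 against WT and 2 in KO2 against WT, with 0.903% and 4.35% of genes called. Leaving out 1 library gave 0 to 3 edgeR calls in KO2 against WT and 0 to 1 in KO2 against KO1, with 3 (PCDHA12, PCDHGB7 and PCDHGC3) and 1 (PCDHGB7) without KO1 replicate 2. The shares of all genes called in those edgeR fits are not given here. Leaving out the high-collagen libraries and the DESeq2 fits without 1 library were added after seeing the data.

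Averaging log2 CPM over isoforms in place of summing gave cluster differences of 0.11 for alpha, -0.00409 for beta and 0.0520 for gamma. Scaling by library total alone, which shifts the median of all genes by -0.11 on the log2 scale, gave 0.0303 for beta. Leaving out 1 library gave 0.27 to 0.43 for alpha, 0.0850 to 0.19 for beta and 0.45 to 0.75 for gamma. Without PCDHGB6 and PCDHGC3, an alternative added after seeing the data, the gamma difference was 0.0162. The cause of the other shifts was not tested.

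Of 677 single-isoform log2 fold changes under an alternative, 633 kept their direction and 44 reversed, 31 of them under 0.15 in size in both fits. In KO against WT without the high-collagen libraries PCDHGC4 was 0.000371, PCDHA7 0.13 (DESeq2 0.12), PCDHB15 0.31 (DESeq2 0.30) and PCDHGB7 -0.23 (DESeq2 -0.23). PCDHB15 was 0.00558 with RLE scaling and 0.00338 by DESeq2. With 1 library left out, edgeR gave -0.0898 to 0.33 for PCDHAC2, -0.14 to 0.67 for PCDHGC5, -0.00545 to 0.16 for PCDHA4, -0.12 to 0.0467 for PCDHA7, -0.0126 to 0.15 for PCDHA11, -0.22 to 0.11 for PCDHB15 and -0.36 to 0.20 for PCDHGA10. DESeq2 gave -0.0785 for PCDHAC2 without WT replicate 3, -0.14 for PCDHGC5 without KO2 replicate 1 and -0.00143 for PCDHA11 without KO1 replicate 2. It gave 0.0288 and 0.0463 for PCDHA7 without WT replicate 2 and KO1 replicate 2, and 0.0311, 0.0893 and 0.22 for PCDHGA10 without WT replicate 2, KO1 replicate 1 and KO1 replicate 3. For PCDHB15 it gave 0.0248, 0.0322, 0.0274, 0.12 and 0.0836 without WT replicate 1, WT replicate 2, KO1 replicate 1, KO1 replicate 2 and KO2 replicate 1. In KO1 against WT PCDHGB7 was -0.23 without the high-collagen libraries and ranged over -0.24 to 0.88 with 1 library left out. In KO2 against KO1 the ranges were -0.0392 to 0.70 for PCDHGC3, -0.39 to 0.0362 for PCDHGA9 and -0.28 to 0.56 for PCDHA12.

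With a −log10 q of at least 5 the clusters held 0 H3K36me3 peaks of the KO list and 8 of the WT list, at 0 and 4 isoform starts. Within 1 kb there were 0 starts in the KO list and 5 in the WT list. Within 5 kb there were 2 in the KO list, and the WT count is not given here. The share of genes outside the clusters was computed for 2 kb and all listed peaks only. These counts therefore have no such share to be read against. With the replicate number as a block edgeR called 0 isoforms in all 4 comparisons. Deviations from the line mean correlated at -0.36 to 0.32 for same-numbered libraries and at -0.32 to 0.38 for differently numbered ones. With 2 or 3 libraries per line these deviations depend on each other, so they cannot show whether the numbers pair the libraries.

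Isoforms under 1 CPM rest on few reads, and their median coefficient of variation over WT libraries was 49.5%, against 40.7% for other genes at that level.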
